A study of Arabidopsis thaliana with 6 samples.

Results

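The 176 genomic regions bound in p35S:LFYTERE seedlings were taken in their deposited order and followed region by region. They are 176 of the 2130 regions in the 2 deposited lists, the other 1954 being the regions bound in p35S:LFY seedlings, and no region was left out. Chromatin immunoprecipitation was followed by sequencing in complete 15-day-old Arabidopsis thaliana seedlings, roots included, of 3 genotypes with 2 biological replicates each. p35S:LFYTERE (line CA29-17) expresses an LFY cDNA with the T75E and R112E changes, p35S:LFY (line CA26-15) expresses the unchanged cDNA, and Col-0 carries no transgene. Both transgenes are driven by the constitutive 35S promoter, each is represented by 1 line, and the seedlings received no treatment. The rabbit antibody was raised against LFY residues 223 to 424, which both proteins share. A region was called when every replicate passed against every Col-0 control, and the values of a region were computed after replicates had been fused. Each region therefore has 1 rank and 1 ratio of p35S:LFY to p35S:LFYTERE coverage. The spread between replicates cannot be given, and nothing here could be tested over samples.

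LEAFY (LFY) is a plant transcription factor that turns a lateral shoot meristem into a flower and switches on the floral organ identity genes. Its C-terminal domain binds DNA as a dimer on a short semi-palindromic site. Its N-terminal domain is a SAM (sterile alpha motif) domain through which LFY proteins line up as oligomers, and the TERE changes lie on both of the surfaces that touch in such an oligomer. The regions described here are those called in seedlings whose LFY protein carries a SAM domain altered on both surfaces.

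In p35S:LFYTERE the best-ranked region lay in NF-YC4 and the region of rank 3 in PYL5, an abscisic acid receptor gene, while those within 3 kb of SEP3, AP1 and MYB17 stood at ranks 29, 48 and 105. Nearly every region was also bound in p35S:LFY: 168 of 176 (95.5%, exact 95% interval 91.2 to 98.0) shared at least 1 bp with a p35S:LFY region. Counted from the other list, 173 of 1954 p35S:LFY regions (8.85%) were overlapped by a p35S:LFYTERE region. The Col-0 controls were common to both lists, and by the study's read totals p35S:LFY had been sequenced more deeply than p35S:LFYTERE. The part of depth in which regions were called in p35S:LFYTERE was not tested. Intervals on shares and medians cover the sampling of regions only.

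The second deposited value, the coverage fold reduction or CFR, is the p35S:LFY coverage of a region divided by its p35S:LFYTERE coverage. It runs from the unchanged to the altered protein, so that a value above 1 means lower coverage in p35S:LFYTERE. Over the 176 regions the median CFR was 2.75 (95% interval 2.64 to 2.90), with quartiles at 2.23 and 3.28. In other terms the p35S:LFYTERE coverage was a median of 36.3% of that in p35S:LFY (34.4 to 37.9%), with a range of 13.8 to 165%. CFR was above 1 in 173 regions, above 2 in 148 and above 4 in 26, so that p35S:LFYTERE coverage was below that of p35S:LFY at nearly all of the regions where LFYTERE binding was strong enough to be called.

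**Figure D1:**
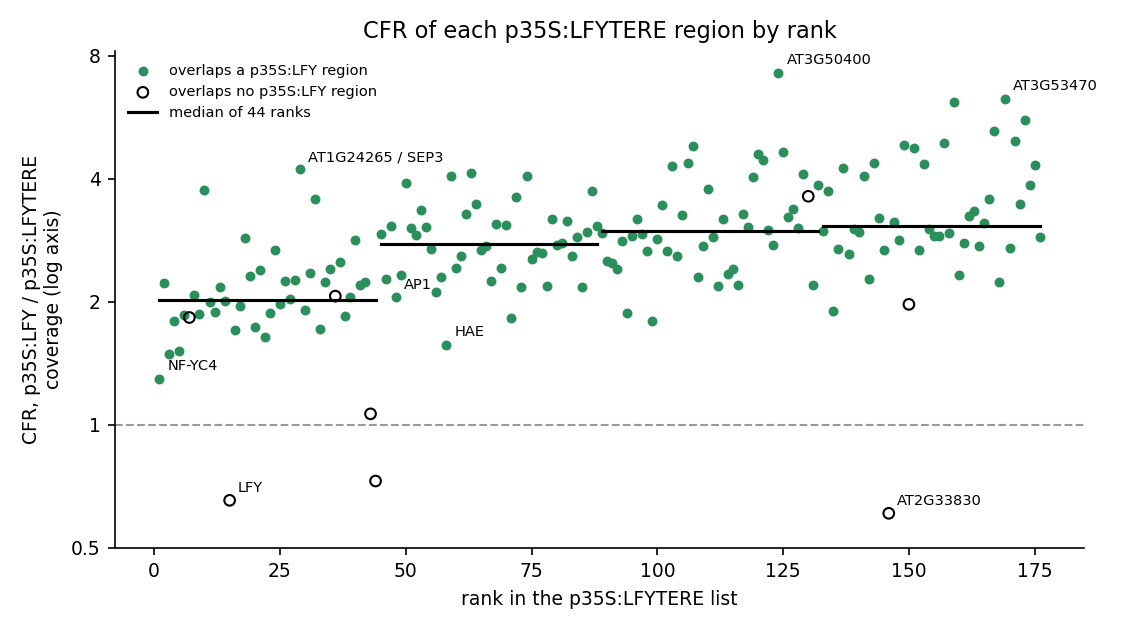
CFR (p35S:LFY coverage over p35S:LFYTERE coverage, log axis) of each of the 176 p35S:LFYTERE regions against its rank in that list. Filled points overlap a p35S:LFY region, open circles do not, black bars give the median of 44 consecutive ranks (2.02, 2.77, 2.98 and 3.07) and the dashed line marks equal coverage.

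Rank and CFR went together within the list. In the best 44 ranks CFR had a median of 2.02, in the next 44 of 2.77, in those from 89 to 132 of 2.98 and in the last 44 of 3.07. Spearman's rho between rank and CFR was 0.56 over 176 regions, a description only, since both values draw on the same p35S:LFYTERE coverage. Width had little relation with either, with rho of -0.19 for rank and 0.03 for CFR.

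The 20 best-ranked p35S:LFYTERE regions lay in or next to genes of several kinds, and among their nearest genes only LFY belongs to the list of floral meristem and organ identity genes. NF-YC4, which encodes a histone-fold subunit of the trimeric CCAAT-box factor NF-Y, held the region of rank 1 inside the gene (TAIR10 chr5:25416793-25417193). Its CFR of 1.30 was the lowest of any region shared by both lists, so that p35S:LFYTERE coverage reached 77.0% of that in p35S:LFY, and the overlapping p35S:LFY region stood at rank 967 of 1954. PYL5 held rank 3 (chr5:1609328-1609777) with a CFR of 1.49 and a p35S:LFY rank of 1186. NDL3, a relative of the N-MYC downregulated genes, held rank 5 (chr2:8488737-8489009) with a CFR of 1.52 and a p35S:LFY rank of 816. Coverage at these 3 regions in p35S:LFYTERE was thus 65.8 to 77.0% of that in p35S:LFY, and their p35S:LFY partners stood between ranks 816 and 1186.

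RHA1A, which encodes a RING-H2 finger protein, held rank 11 inside the gene with a CFR of 2.00. Its neighbour RHA1B held a separate region near the end of the list, at rank 164 with a CFR of 2.75. Hrd1B, a ubiquitin ligase gene of protein degradation at the endoplasmic reticulum, was 57 bp from the midpoint of the region of rank 12, whose CFR was 1.89.

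The remaining regions of the first 20 ranks included AT3G05220 at rank 2 (CFR 2.22), AT4G00305 at rank 4 (1.79), AT1G56030 at rank 6 (1.86), AT1G20490 at rank 8 (2.08), AT3G58720 at rank 9 (1.87) and AT2G11225 at rank 10 (3.76). AT4G27980 followed at rank 13 (CFR 2.17), AT1G10850 at rank 16 (1.71), AT1G73390 at rank 18 (2.87) and AT2G45060 at rank 19 (2.31). MSS3, a calmodulin-like gene, was the nearest gene to the region of rank 14 at 1740 bp, with a CFR of 2.00. GUT2, which encodes a xylan glycosyltransferase of the secondary cell wall, was 39 bp from the region of rank 20 (chr1:9531401-9531655). That region had a CFR of 1.74 and a p35S:LFY rank of 1750, among the lowest of the p35S:LFY list.

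Among regions called in both lists, the rank in p35S:LFYTERE said little about the rank in p35S:LFY. Spearman's rho was 0.12 over the 168 regions with a partner, which share the same controls and genomic sites. Regions not called in p35S:LFYTERE have no rank there, so rho covers only this selected part of the p35S:LFY list. Partner ranks had a median of 520.5 (95% interval 427 to 640) and ran from 4 to 1931. Relative position was the rank as a percentage of the number of regions in its own list, 176 or 1954. The largest gains in relative position were those of AT3G05220, GUT2, PYL5, HAE, NF-YC4, RBL12, AT2G11225, AT3G02250, NDL3 and AT5G60630. At AT3G05220, RBL12, AT2G11225 and AT5G60630 the partner covered only 28.3 to 46.4% of the p35S:LFYTERE region, which reached over a gap to a further p35S:LFY region, so these ranks do not compare the same peak. HAE, a receptor kinase gene of floral organ abscission, was at rank 58 (chr4:14077373-14077600) with a CFR of 1.57, against rank 1655 for the overlapping region in p35S:LFY.

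The largest losses of relative position were those of NRP1, AT3G53470, MEE69, AT2G41945, AT5G15060, AAC1, CYP714A1, AT3G19010, AT3G02460 and AT2G39805. At AT2G41945 the partner covered 42.3% of the p35S:LFYTERE region and the midpoints were 293 bp apart, so its ranks may not compare the same peak. NRP1, a gene named after nodulin-related proteins, stood at rank 171 with a CFR of 4.94, against rank 53 for its region in p35S:LFY. AAC1, the gene of a mitochondrial ADP/ATP carrier, was 5 bp from the region of rank 173, which had a CFR of 5.56, against rank 334 in p35S:LFY. Of these 10 genes, 8 were also among the 10 of highest CFR. Loss of relative position and CFR both set p35S:LFY against p35S:LFYTERE at the same regions. Their overlap is thus built in to a large part and carries no separate support. The 5 regions with a CFR above 5 were at AT3G50400 (7.27), AT3G53470 (6.28), MEE69 (6.17), AAC1 (5.56) and AT5G15060 (5.25), and all of them were at rank 124 or lower in the list. NRP1, AT2G41945 (4.89), AT2G39805 (4.83), PFD3 (4.80), a prefoldin subunit gene, and CYP714A1 (4.76) completed the 10 highest values.

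**Figure D2:**
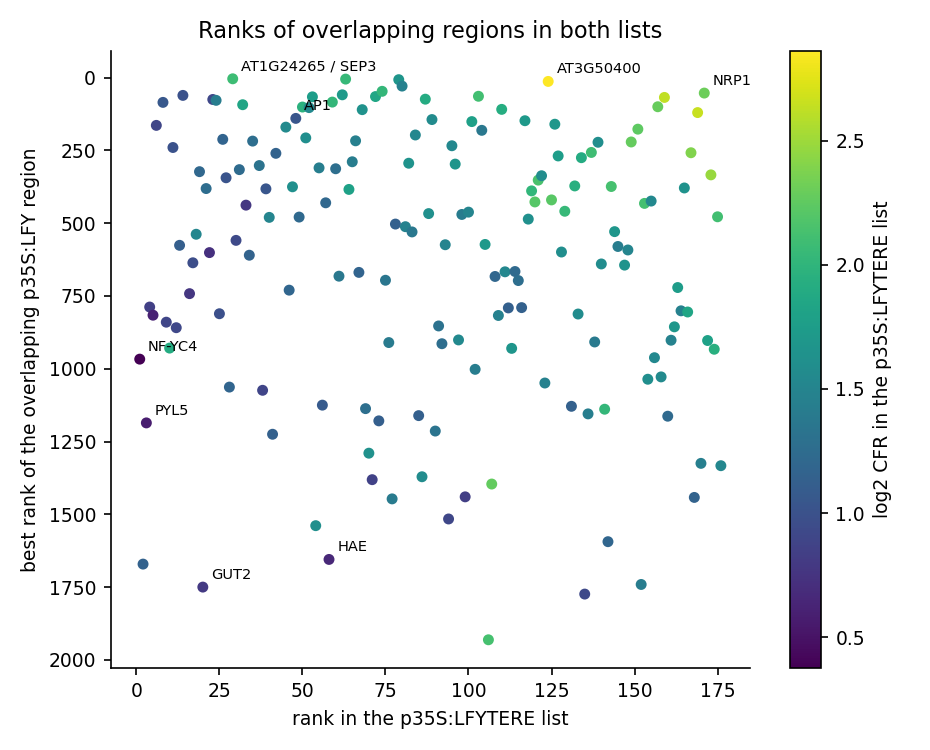
Rank of each of the 168 p35S:LFYTERE regions with a partner (horizontal axis) against the best rank of the p35S:LFY region it overlaps (vertical axis, best rank at the top), coloured by log2 CFR. NF-YC4, PYL5, GUT2 and HAE combine a good rank in p35S:LFYTERE with a p35S:LFY rank of 967 to 1750 and a low CFR, and rho over all points was 0.12.

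A larger share of the best p35S:LFY regions than of all p35S:LFY regions was retained, yet most of the best were not called in p35S:LFYTERE. Of the first 100 p35S:LFY ranks, 20 were overlapped (20%, exact 95% interval 12.7 to 29.2), beside 8.85% of all p35S:LFY regions. It was 12% (4.53 to 24.3%) over the best 50, an interval that takes in 8.85%, and 17.5% over the best 200, 16.4% over the best 500 and 13.3% over the best 1000. It was 3% at ranks 1201 to 1300 and 3.7% at ranks 1901 to 1954. Among the best 20 p35S:LFY regions, 4 were retained, at AT1G24265 near SEP3 (p35S:LFY rank 4), AT5G46910 (rank 5), AT3G53950 (rank 7) and AT3G50400 (rank 13). Their p35S:LFYTERE ranks were 29, 63, 79 and 124, and their CFR there was 4.22, 4.13, 3.20 and 7.27. The p35S:LFY region of rank 1, at CYP81D7, had a CFR of 21.5 and no p35S:LFYTERE region.

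**Figure D3:**
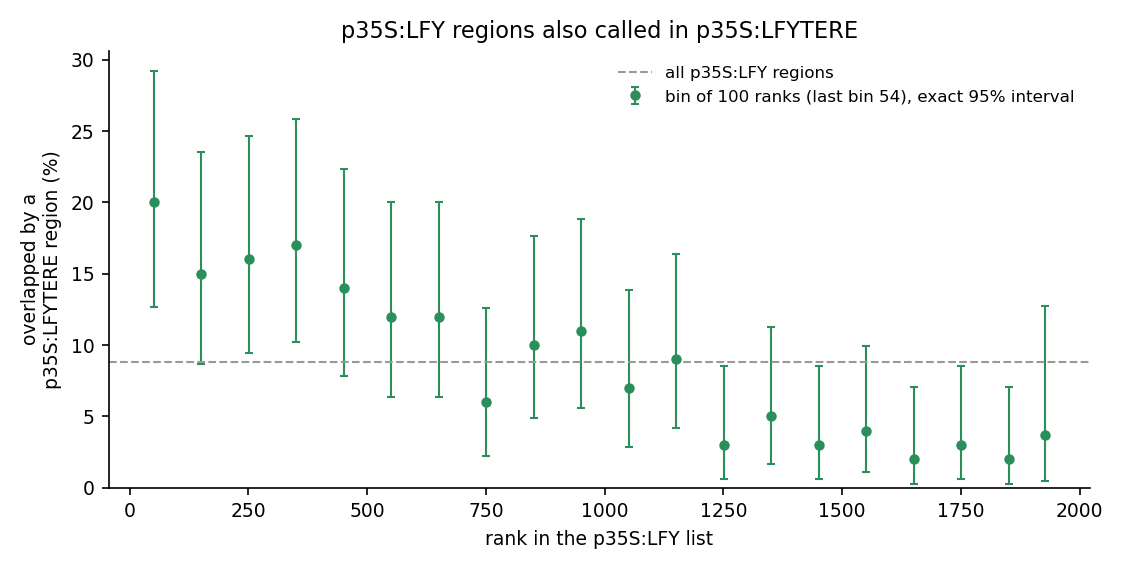
Percentage of p35S:LFY regions overlapped by a p35S:LFYTERE region, in bins of 100 ranks of the p35S:LFY list (54 in the last), with exact 95% intervals. The first bin stood at 20% and the last at 3.7%, and the dashed line marks the 8.85% of all p35S:LFY regions.

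Sorted by CFR in place of rank, the p35S:LFY list had nearly all of its lowest values at retained regions. All 15 p35S:LFY regions with a CFR of 2 or less had a p35S:LFYTERE region, among them NF-YC4, PYL5, NDL3, HAE, the calcium-dependent kinase gene CPK9, GUT2, ACT7 and the brassinosteroid receptor gene BRI1. At a CFR of 2.5 or less, 47 of 50 (94%) were retained, at 3 or less 87 of 125 (69.6%) and at 4 or less 135 of 311 (43.4%). The not retained region of lowest CFR, 2.13, was at AT1G25400 and stood at rank 1942 in p35S:LFY. CFR contains the p35S:LFYTERE coverage on which the calls also rest, so these shares describe how the call and the ratio relate and carry no separate support.

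Regions called in p35S:LFYTERE were mostly narrower than the p35S:LFY regions they overlapped. The part of sequencing depth and of lower coverage in the called width was not tested. Of the 168 with a partner, 143 (85.1%, 78.8 to 90.1%) lay whole inside 1 p35S:LFY region, and 160 were narrower than it. The median width was 293 bp in p35S:LFYTERE, against 404 bp for the overlapped p35S:LFY regions, and a p35S:LFYTERE region spanned a median of 74.8% of its partner. Midpoints differed by a median of 20 bp and by at most 50 bp in 136 regions. The CFR given in the p35S:LFYTERE list was below that of the overlapped p35S:LFY region at 166 of 168. Each CFR was computed over the interval called in its own list, so this count follows in part from how the intervals were drawn.

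The widest p35S:LFYTERE regions, of 450 bp or more, were at AT3G05220, PYL5, LFY, AT2G45060, AT1G24265, CRN, AT5G46910, AT3G53950, AT4G24200, BEH1, AT2G45590, NF-YB2, AT4G30760, AT2G33830 and ATL5. CRN, the gene of a membrane protein that acts with the CLAVATA receptors in the shoot meristem, had a region of 488 bp inside the gene at rank 34. It spanned 93.8% of the p35S:LFY region, and its CFR was 2.23 in both lists. ATL5, a RING finger gene, held a region of 594 bp at rank 160 with a CFR of 2.33. BEH1, a relative of the brassinosteroid response factors, had a region of 459 bp at rank 110, 242 bp from the gene, with a CFR of 3.78.

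A gap between neighbouring p35S:LFY regions was bridged at 5 places. At AT3G05220 (rank 2), AT2G11225 (rank 10), RBL12 (rank 54), AT5G60630 (rank 106) and PFD3 (rank 107) a p35S:LFYTERE region overlapped 2 p35S:LFY regions, and its midpoint lay in the gap between them each time. The gaps measured 221, 142, 85, 58 and 63 bp in that order. At AT3G05220 the p35S:LFYTERE region (chr3:1490579-1491044) had a CFR of 2.22, while both flanking p35S:LFY regions had one of 3.20. At PFD3 the p35S:LFYTERE region had a CFR of 4.80, against 5.84 and 8.07 for the flanking p35S:LFY regions. The flanking p35S:LFY regions at these 5 places had ranks between 929 and 1954, the last rank of that list.

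The 8 regions without a p35S:LFY partner were at LFY (3 regions), OFP16, GPX7, NF-YA3, AT2G33830 and sks4. The 3 inside LFY, at ranks 15, 43 and 44 (chr5:24846526-24846980, chr5:24845243-24845623 and chr5:24844292-24844717), had CFR values of 0.654, 1.06 and 0.729. Both transgenes carry an LFY cDNA and Col-0 does not, so reads of transgene DNA and of the LFY locus cannot be told apart there and the counts for floral genes are also given without LFY. The nearest p35S:LFY region, at GUT1, had its midpoint 2379 bp from the closest of them. AT2G33830 held the widest p35S:LFYTERE region (613 bp, rank 146), and its CFR of 0.607 was the lowest in the list, meaning that p35S:LFYTERE coverage was 165% of that in p35S:LFY.

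OFP16, which encodes an OVATE family repressor of transcription, had the best-ranked region of this kind at rank 7 (chr2:13646936-13647193), with a CFR of 1.83. Its midpoint was 635 bp from the gene and 651 bp from that of a p35S:LFY region of rank 33 and CFR 6.07, whose nearest gene was AT2G32090. GPX7, a glutathione peroxidase gene, had a region at rank 36 with a CFR of 2.07, 30024 bp from the nearest p35S:LFY region. NF-YA3, a further NF-Y subunit gene, had one at rank 130 with a CFR of 3.63, and sks4, of the SKU5-similar family, one at rank 150 with a CFR of 1.97. Coverage at OFP16, GPX7, NF-YA3 and sks4 was therefore higher in p35S:LFY although no region was called there.

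The p35S:LFYTERE regions were split between genic and intergenic positions. Midpoints lay inside a protein-coding gene in 80 of 176 p35S:LFYTERE regions (45.5%, 37.9 to 53.1%), outside but within 1 kb in 74 (42.0%) and farther away in 22 (12.5%, 8.00 to 18.3%). For the 1781 p35S:LFY regions without a p35S:LFYTERE region these shares were 43.4%, 38.2% and 18.4% (16.6 to 20.2%). The share of 18.4% beyond 1 kb lies just above the p35S:LFYTERE interval, while the 17.9% of all 1954 p35S:LFY regions lies inside it. No test of the difference was made. Within p35S:LFYTERE the median CFR was 2.59 (2.30 to 2.75) inside genes, 2.93 (2.79 to 3.20) within 1 kb and 2.88 (2.00 to 4.07) beyond it.

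**Figure D4:**
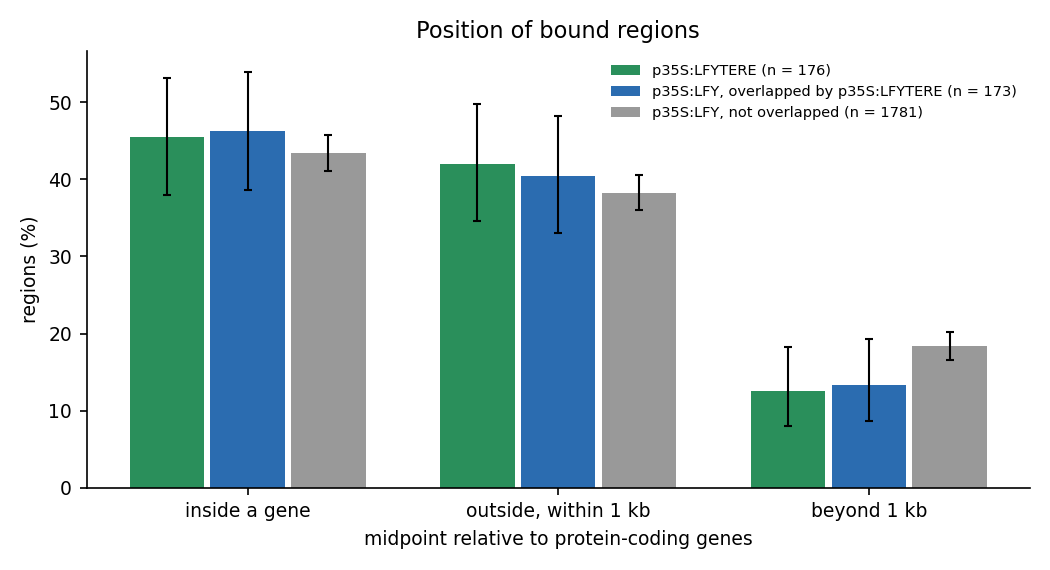
Percentage of regions whose midpoint lies inside a protein-coding gene, outside but within 1 kb, or beyond 1 kb, with exact 95% intervals. Green bars are p35S:LFYTERE regions, blue bars the p35S:LFY regions they overlap and grey bars the other p35S:LFY regions; in each class the green and grey intervals overlap, with 12.5% of p35S:LFYTERE regions and 18.4% of the grey group beyond 1 kb.

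The regions inside genes included those at NF-YC4, PYL5, NDL3, RHA1A, CPK9, CRN and the flavonol regulator gene MYB11 (rank 89, CFR 2.95). The regions farthest from a gene were those nearest to EDA12 at 4805 bp, AT1G67340 at 4777 bp and PFD3 at 2901 bp, and the region nearest to BRI1 lay 2896 bp away. The midpoints of 6 regions fell in annotated long non-coding RNA genes, among them those near AT1G24265, the expansin gene EXPA6 and AT3G50400. The annotation used gives no strand or exons, so upstream and downstream positions or exons and introns were not separated.

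By chromosome the share of p35S:LFY regions retained in p35S:LFYTERE was 5.81% (3.48 to 9.02%) on chromosome 2 and 6.49% (4.58 to 8.87%) on chromosome 1. It was 9.31% (6.79 to 12.4%) on chromosome 5, 12.0% (8.4 to 16.3%) on chromosome 4 and 12.1% (8.93 to 16.0%) on chromosome 3. All these intervals take in the 8.85% of all p35S:LFY regions, except that of chromosome 3, which starts just above it. No test of the difference was made. The 176 regions had 173 distinct nearest genes. LFY had 3 regions and CDS5, a gene of phospholipid synthesis, had 2 (ranks 17 and 144), so that regions were spread over genes with hardly any clustering.

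Beyond nearest genes, 410 of 27444 protein-coding genes (1.49%) had a p35S:LFYTERE midpoint inside them or within 3 kb, against 3700 (13.5%) for p35S:LFY. Of the 410 genes, 400 (97.6%) also had a p35S:LFY region, and these were 10.8% of the 3700. Against this background, 10 of the 141 genes in 9 hormone, flowering, meristem and reference lists had a p35S:LFYTERE region, and 52 had a p35S:LFY region. Neighbouring genes can share a region, and counts of a few genes per list allow no statement about any list beyond the count.

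The list for floral meristems and organ identity holds 22 genes, of which 4 had a p35S:LFYTERE region within 3 kb and 9 a p35S:LFY region. SEP3, a MADS-box gene active in all inner floral organs, was 2573 bp from the region of rank 29 (chr1:8598441-8598952), which had a CFR of 4.22 and lay closer to AT1G24265. AP1, the floral meristem identity gene directly activated by LFY, was 121 bp from the region of rank 48 (chr1:25986309-25986631). That region spanned 47.1% of the width of its p35S:LFY partner, and its CFR of 2.06 was below the list's median. MYB17, a meristem identity factor, was 677 bp from the region of rank 105 (chr3:22669940-22670165), with a CFR of 3.27. That region lay closer to AT3G61240 (295 bp), and its partner held p35S:LFY rank 573. A p35S:LFY region nearer to MYB17, at 263 bp and rank 176, was not retained. The remaining gene was LFY, with the 3 regions described above, and without it 3 genes were retained.

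The organ identity genes AG, AP3, SEP4 and SHP2 and the growth regulator ANT had a p35S:LFY region within 3 kb and none in p35S:LFYTERE. The CFR of these p35S:LFY regions was 10.1 at AG, 5.23 at AP3, 84.3 at SEP4, 19.8 at SHP2 and 21.4 at ANT, whose region held p35S:LFY rank 46. At AP1, SEP3 and MYB17 as well, further p35S:LFY regions within 3 kb were not called in p35S:LFYTERE, with CFR values of 18.9 and 15.4 at AP1, 10.9 at SEP3 and 10.9 at MYB17.

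Of 16 flowering time genes 0 had a p35S:LFYTERE region, against 5 with a p35S:LFY region (FD, TEM1, TEM2, GI and SPL9). This count holds only for the 16 genes listed. The floral repressor genes MAF3 and MAF4, not in that list, were 563 and 218 bp from the p35S:LFYTERE region of rank 47 (CFR 3.06). Of 17 inflorescence, meristem and boundary genes 1 had a p35S:LFYTERE region, against 7 for p35S:LFY. That gene was BOP1, which patterns leaf and flower bases, 1416 bp from the region of rank 128 (chr3:21146034-21146251) with a CFR of 3.02. Of the 3 p35S:LFY regions near BOP1 the retained one had a CFR of 3.59 in that list, against 6.40 and 25.9 for the others. TFL1, CUC2, CUC3, MYB37, MYB38 and BOP2 had p35S:LFY regions and no p35S:LFYTERE region.

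Each of the auxin, gibberellin and abscisic acid lists had 1 retained gene. Of 15 auxin genes 1 had a p35S:LFYTERE region and 9 a p35S:LFY region. The retained gene was ETT, an auxin response factor of gynoecium patterning, 180 bp from the region of rank 116 (chr2:14324852-14325201) with a CFR of 2.20. That region had its midpoint inside AT2G33855. PIN7, an auxin efflux carrier gene 2220 bp from the p35S:LFY region of rank 3 (CFR 11.4), had no p35S:LFYTERE region, nor had YUC4, TIR1 or PID. Of 22 gibberellin genes 1 had a p35S:LFYTERE region and 9 a p35S:LFY region. It was CYP714A1, a gibberellin-inactivating cytochrome P450 gene, 207 bp from the region of rank 151 (chr5:8570406-8570743) with a CFR of 4.76. Its p35S:LFY region held rank 177. The cytokinin list had 0 of 14 genes for p35S:LFYTERE and 5 for p35S:LFY, and the abscisic acid list 1 of 22 (PYL5) and 5.

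HAE was retained among 4 abscission genes, of which 2 had a p35S:LFY region. Of 9 constitutively expressed reference genes, ACT7, a vegetative actin gene, had a region in both genotypes, 118 bp from the gene at rank 94 with a CFR of 1.88, against rank 1516 in p35S:LFY. The region at this cytoskeletal gene thus kept 53.2% of its coverage, above the median of the list.

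**Figure D5:**
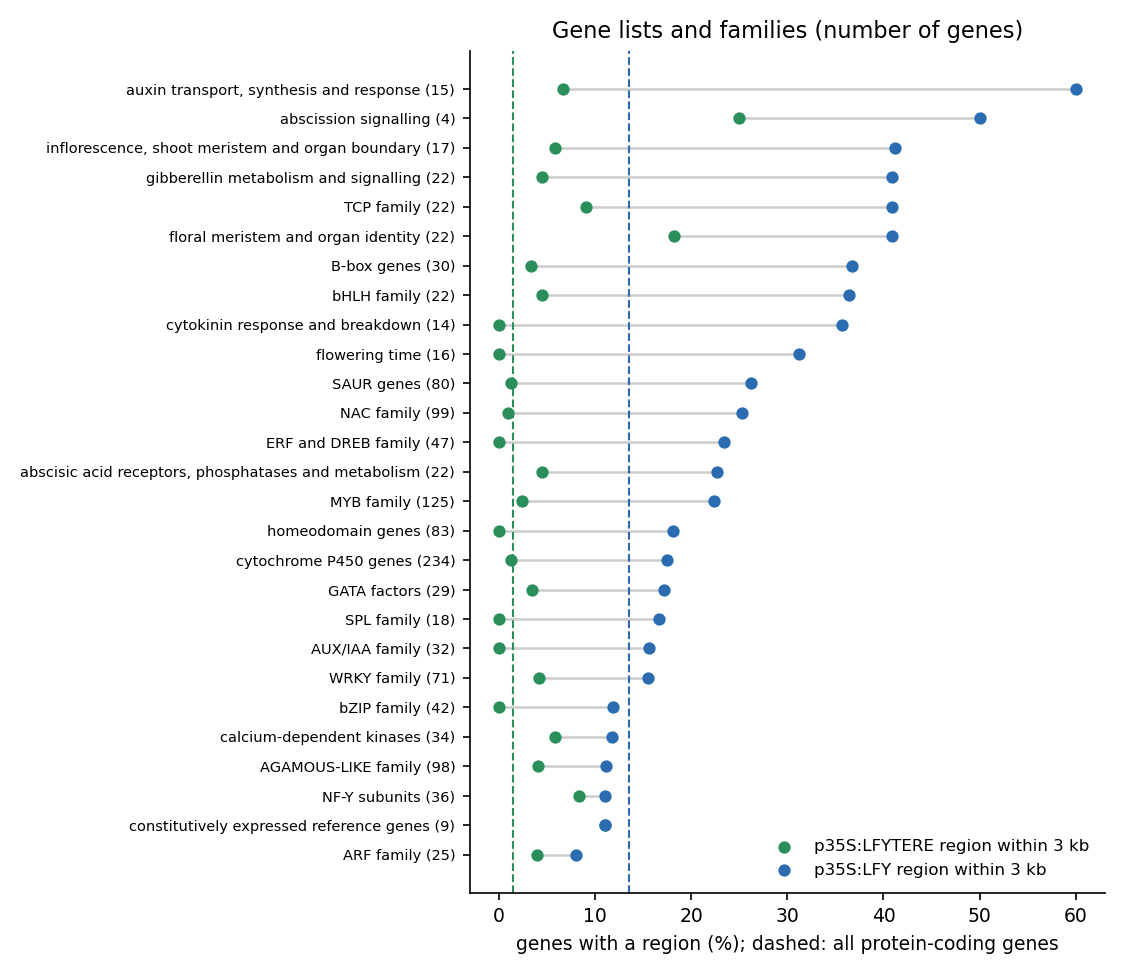
Percentage of genes in each list or symbol-matched family (number of genes in brackets) with a p35S:LFYTERE region (green) or a p35S:LFY region (blue) within 3 kb. Dashed lines mark all protein-coding genes (1.49% for p35S:LFYTERE and 13.5% for p35S:LFY). As examples from the sets shown, NF-Y subunits had 3 of 36 genes for p35S:LFYTERE beside 4 for p35S:LFY, and the NAC family had 1 of 99 beside 25. The NF-Y counts are not nested, since NF-YA3 had a p35S:LFYTERE region and no p35S:LFY region within 3 kb.

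Gene families, matched by symbol and so incomplete, had between 0 and 4 genes with a p35S:LFYTERE region. Of 36 NF-Y subunit genes, 3 had a p35S:LFYTERE region and 4 a p35S:LFY region. They were NF-YC4 (rank 1), NF-YB2 (rank 122, CFR 3.00, 517 bp wide) and NF-YA3 (rank 130, no p35S:LFY partner), which encode subunits of each of the types that make up the NF-Y trimer. The AGAMOUS-LIKE MADS-box family had 4 of 98 genes for p35S:LFYTERE and 11 for p35S:LFY. Beside SEP3 and AP1 these were the floral repressor genes MAF3 and MAF4, which share the region of rank 47 (chr5:25991809-25992141, CFR 3.06).

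The WRKY family had 3 of 71 genes for p35S:LFYTERE (WRKY36 at 577 bp, WRKY69 at 189 bp and WRKY2 at 2330 bp from the regions of ranks 66, 9 and 139), against 11 for p35S:LFY. None of these 3 was the nearest gene of its region, so that counting only nearest genes gave 0. The MYB family had 3 of 125 (MYB11, MYB17 and MYB48), against 28, and cytochrome P450 genes had 3 of 234 (CYP76C3, CYP96A9 and CYP714A1, the last alone a nearest gene), against 41. Calcium-dependent kinases had 2 of 34, against 4, with CPK9 at rank 22 and a CFR of 1.65, and CPK25 at 2390 bp from the region of rank 49. TCP factors had 2 of 22 (AT1G72010 and TCP11, neither of them a nearest gene), against 9. The NAC family had 1 of 99 (NAC080, CFR 4.35), against 25, SAUR genes 1 of 80 (AT1G19840), against 21, and B-box genes 1 of 30 (BBX15), against 11. The bHLH family had 1 of 22 (bHLH121), against 8, GATA factors 1 of 29 (GATA2), against 5, and auxin response factors 1 of 25 (ETT), against 2.

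Families whose symbol-matched genes had p35S:LFY regions and no p35S:LFYTERE region were ERF and DREB factors (0 of 47, against 11), homeodomain genes (0 of 83, against 15), AUX/IAA genes (0 of 32, against 5), bZIP factors (0 of 42, against 5) and SPL factors (0 of 18, against 3). The share with a p35S:LFYTERE region was 1.49% over all protein-coding genes and 10.8% over genes with a p35S:LFY region. At such shares these small counts allow no statement about any family beyond the count. A symbol pattern can miss members. HDG1, a homeodomain gene of the epidermis that the pattern did not take, was 274 bp from the region of rank 162, which had a CFR of 3.24. Also missed were the DREB gene ddf2, 888 bp from the region of rank 158 (CFR 2.94), and the ERF gene CRF2. CRF2 was 2558 bp from the region of rank 141 (CFR 4.06). The bZIP gene GBF2, missed as well, was 848 bp from the region of rank 109 (CFR 2.74). The counts of 0 therefore hold only for the genes matched.

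Of the 176 p35S:LFYTERE regions, 43 had within 3 kb a p35S:LFY region that no p35S:LFYTERE region overlapped, and there were 52 such p35S:LFY regions. Their median CFR was 7.46 (range 2.75 to 74.8), and in 49 of 52 it was above the CFR of the neighbouring p35S:LFYTERE region. At AT5G62140 the p35S:LFYTERE region of rank 40 had a CFR of 2.84, and the midpoint of a p35S:LFY region with a CFR of 74.8 lay 434 bp away. At GUT2 the neighbour lay 506 bp away with a CFR of 4.77, against 1.74 for the p35S:LFYTERE region. A neighbour that had been called would have counted as retained, so its higher CFR follows in part from how the 52 were picked.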

How the data were processed

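The authors mapped reads to TAIR10 (build from the submitters' processing notes) and called regions with SHORE where all 4 comparisons of 2 replicates with 2 Col-0 controls passed. Replicates were scaled to each other and fused, and genotypes were then scaled by peaks found in Col-0. The deposited lists give each region a rank, a score that orders regions within 1 list, and the CFR, a ratio of fused coverages. Neither holds counts, so depth per region is unknown here.

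Overlap was counted at 1 bp or more, and the partner was the p35S:LFY region of best rank. Region midpoints were placed against 27444 protein-coding genes of a RefSeq table of TAIR10.1, used for names and neighbours, with nuclear positions taken to be those of TAIR10. Python 3.11.15, numpy 2.4.6, pandas 2.3.3, scipy 1.17.1 and matplotlib 3.10.9 were used, and the functions were tested on simulated regions. Shares have exact binomial 95% intervals. No sequence was used.

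The 9 lists (141 genes, all matched by locus), 18 families matched by symbol and the rule for named genes were chosen with earlier results of these data known. The rule took the genes of the 20 best ranks, of the 10 highest and 10 lowest CFR, of the 10 largest gains and losses of relative rank, of regions of 450 bp or more or without a partner, and list members within 3 kb. BRI1, CYP81D7, AT1G25400, AT5G62140, EXPA6, HDG1, ddf2, CRF2, GBF2, RHA1B and list genes without a p35S:LFYTERE region were named after their values were seen.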

Additional observations from a re-analysis of the deposited data

How the results depend on the processing

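Limits come first from the lists themselves, which hold 1 value per region over fused replicates. No paired analysis was possible because the lists hold no value per replicate, and leaving out a replicate was not possible for that reason. The planned count of LFY motifs was not run, since no sequence was used. Among the best 88 p35S:LFYTERE regions, fewer by construction, 83 had a p35S:LFY partner, the median CFR was 2.32 and Spearman's rho between the ranks was -0.11, so that the sign of this weak relation rests on the lower part of the list; the cause was not tested. Taking CFR from the overlapping p35S:LFY region gave a median of 2.98 in place of 2.75. The other 19 values of these main results stayed within 1.5 times the count or inside the interval of the reported value. Among them were overlap by 50% or by the midpoint (161 regions each), overlap with the best 1000 p35S:LFY regions (133) and list genes counted by a 1 kb window (8) or nearest gene (7), against 10. Counting only the nearest gene left 2 floral genes (LFY and AP1) and no auxin gene near p35S:LFYTERE regions, and a window of 1 kb left no inflorescence gene. By nearest gene the WRKY, TCP, NAC, bHLH, GATA and auxin response factor families each had 0 genes and cytochrome P450 genes 1. Over the lists and families 16 such counts moved and 24 stayed the same.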

Other observations

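Some genes outside the lists were near p35S:LFYTERE regions and were picked here after their regions had been seen, so that their number carries no weight. Of the 4 HAIRY MERISTEM genes, which encode GRAS factors that maintain shoot meristems, 3 had a p35S:LFYTERE region within 3 kb. HAM2 was near the region of rank 17 (CFR 1.95, closest to CDS5), HAM4 near rank 37 (CFR 2.50) and HAM3 near rank 52 (CFR 2.91). HAM1 had no region within 3 kb in p35S:LFYTERE or p35S:LFY. At HAM3 a p35S:LFY region 508 bp away, with a CFR of 10.9, was not called in p35S:LFYTERE. Receptor kinase genes of shoot growth were BRI1 (rank 38, CFR 1.84, 2896 bp from the gene) and ERL1 (rank 96, CFR 3.20).

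Nearest genes with a role in the cell wall, picked in the same way, were beside GUT2 the genes TSD2, a putative methyltransferase gene for pectin (rank 23, CFR 1.88), the cellulase genes CEL3 (rank 24, CFR 2.68) and GH9B7 (rank 85, CFR 2.18), EXPA6 (rank 30, CFR 1.92) and the xylan methyltransferase gene GXMT1 (rank 65, CFR 2.68). Genes of vesicle traffic were those of the Rab GTPases RABA2D (rank 83, CFR 2.59) and RABG3A (rank 119, CFR 4.03), the exocyst subunit EXO70B2 (rank 118, CFR 3.06) and the syntaxin SYP41 (rank 125, CFR 4.65). The regions at RABA2D, RABG3A, EXO70B2 and SYP41 all lay inside the gene. The clock-associated gene RVE8 had a region 231 bp away at rank 74 with a CFR of 4.06, whose partner held rank 47 in p35S:LFY.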
